A study of Homo sapiens with 6 samples.

Results

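The genes described here were 10 targets of Wnt signalling that also mark or regulate intestinal stem cells, namely AXIN2, LGR5, ASCL2, RNF43, ZNRF3, NKD1, NOTUM, SP5, TCF7 and MYC. They were taken from the count tables by gene symbol. All 10 were found among the 28278 genes listed in each count table, and all 10 were among the 15307 genes with enough counts to be tested. After knockdown of the glycolytic enzyme ALDOA, AXIN2, LGR5 and ASCL2 were higher than in control cells, by 1.22-fold, 1.38-fold and 1.63-fold, while the other 7 did not pass the test. The call of LGR5 was lost under 4 of 15 other ways of processing the counts, and MYC was called lower under 3.

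Wnt ligands bind Frizzled receptors with LRP co-receptors and so stop a destruction complex, built on APC and AXIN proteins, from degrading β-catenin. β-catenin then enters the nucleus, binds TCF and LEF factors and switches on target genes, several of which encode inhibitors that close a feedback loop. In the intestine this pathway maintains the stem cells at the crypt base, and HT29, as many colorectal cancer lines, carries truncated APC, so that target genes are active without a ligand.

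The question of the RNA-Seq experiment was how the transcriptome of colorectal cancer cells differs when ALDOA is depleted. HT29 cells, an established human colorectal adenocarcinoma line with epithelial morphology, received either a siRNA against ALDOA (siALDOA, 3 libraries) or a scrambled siRNA (siControl, 3 libraries), and RNA was taken after 48 h. Each group was labelled as 3 biological replicates of 1 cell line, all cells carried a siRNA, and nothing in the labels said whether the replicates were separate cultures, so the p-values measure the spread between these libraries. No untreated cells and no other siRNA against ALDOA were analysed here. Because the RNA came from whole cultures, fewer cells that express a gene and less RNA per cell cannot be told apart.

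The libraries held 27277538 to 33237914 counts on genes. Levels are given as CPM, the counts of a gene relative to the library total after TMM scaling, and siALDOA was compared with siControl by edgeR's quasi-likelihood test with Benjamini-Hochberg adjustment over all tested genes, at an adjusted p under 0.05. ALDOA itself averaged 632 ± 38.2 CPM in the control libraries and 289 ± 13.7 CPM after knockdown (SD, n = 3 each), which was a log2 fold change of -1.13 (SE 0.060, edgeR adjusted p = 6.95e-11). ALDOA shares 1639 exon bases with a GENCODE gene on the same strand that has no row of its own, so reads of both cannot be told apart. The epithelial markers EPCAM, KRT8, KRT18, KRT19, CDH1 and VIL1 averaged at least 278 CPM in each group, and CDX2, an intestinal transcription factor, averaged 12.4 CPM with siALDOA and 14.4 CPM with siControl. Of these markers KRT18 was called lower (log2 fold change -0.28, edgeR adjusted p = 0.0152) and KRT19 higher (0.38, edgeR adjusted p = 5.77e-04), and their part in the results was not tested. Of 15 markers of fibroblasts, endothelium and blood cells, 11 stayed below 1 CPM in every library and 3 of these had no count, while the summed level of all 15 was 21.1 to 22.8 CPM with siALDOA and 19 to 19.4 CPM with siControl. Among the 4 of them with enough counts, CD14 was called higher (16.9 against 13.5 CPM) and PECAM1 lower (0.756 against 1.79 CPM), each lost its call for 5 of the 6 libraries left out, and their part in the results was not tested. Ribosomal RNA genes took 7.71% to 13.1% of the siALDOA counts and 8.15% to 17.4% of the siControl counts. On the second principal component siALDOA replicate 1 lay at 24.2 and siControl replicate 1 at 10.3. Replicates 2 and 3 lay at 0.927 and -4.56 for siControl and at -14.6 and -16.3 for siALDOA.

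The promoter of SP5 is shown because, of the member promoters searched, it held the most copies of a word that TCF factors recognise. The search covered the 250 bases before each RefSeq start site (GRCh38.p14) on both strands for CTTTGNN with A or T in each of the last 2 places. RefSeq promoters were matched for 3 of the 10 members, SP5, TCF7 and RNF43. SP5 held 3 of these words, which began 148, 109 and 84 bases before the start site and did not overlap each other. They are in capitals in its plus-strand promoter, chr2:170715087-170715336, where those that end in AAAG lie on the minus strand.
SP5: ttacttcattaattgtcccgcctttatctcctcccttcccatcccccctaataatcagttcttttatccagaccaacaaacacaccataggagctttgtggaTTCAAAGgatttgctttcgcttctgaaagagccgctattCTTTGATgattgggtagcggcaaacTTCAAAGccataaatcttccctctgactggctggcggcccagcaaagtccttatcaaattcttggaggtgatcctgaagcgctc
Of all 35116 promoters of this length, 12% held at least 1 such word and 0.122% held at least 3. TCF7 held 1 word before one of its start sites and 0 before the other, and RNF43 held 0 before each of its start sites. These matches describe letters only, and binding was not measured.

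In HT29 cells the members differed widely in level. Per kilobase of their MANE Select transcript, averaged over the 6 libraries, RNF43 was highest at 56.9 CPM per kb (range 52.9 to 60.9), followed by MYC at 38.7 (33.7 to 41.9). ZNRF3 at 27.9 CPM per kb (26.9 to 30.1) and AXIN2 at 25.2 (21.4 to 28.4) overlapped in range, and TCF7 followed at 19.9 (18.4 to 21.3). SP5 at 7.99 CPM per kb, LGR5 at 5.99 and ASCL2 at 5.67 formed a lower tier whose ranges overlapped. NOTUM at 0.683 CPM per kb (0.472 to 0.792) and NKD1 at 0.263 (0.210 to 0.324) were the least abundant, and the value of NKD1 depends on its long MANE transcript of 17039 bases. The plot of member levels shows the same genes in CPM, without the correction for length.

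**Figure D1:**
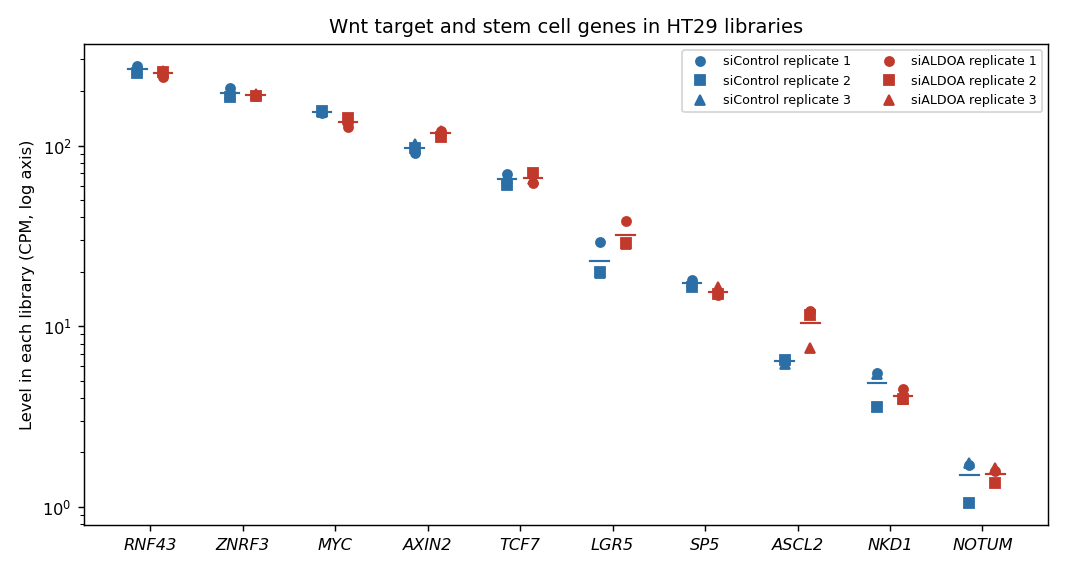
Level of each member in each library, in CPM on a log axis, with siControl in blue and siALDOA in red. Symbols mark the replicate number and short lines the group means. AXIN2 and ASCL2 lay above all siControl libraries in all 3 siALDOA libraries, MYC lay below, and the other members overlapped.

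By the test, 3 of the 10 members were called, all higher with siALDOA and 0 lower. With a block for the replicate number 4 were called, 3 higher and 1, MYC, lower. Without the block 9.66% of all tested genes were called, 4.36% higher and 5.29% lower. The members were chosen with earlier results of these data known, so this comparison does not test the list. The fold changes of the 10 members had a median of -0.01 on the log2 scale, with 5 above and 5 below 0, beside a median of 0.0016 over all tested genes. This split depended on the setting, since 7 members were above 0 with library totals alone (median 0.064), 6 without siControl replicate 1 (median 0.039) and 3 without siControl replicate 2 (median -0.089). For 3 members the ranges of both groups were separate. AXIN2 and ASCL2 lay wholly above, as did 13.1% of all tested genes, and MYC lay wholly below, as did 14.6%.

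**Figure D2:**
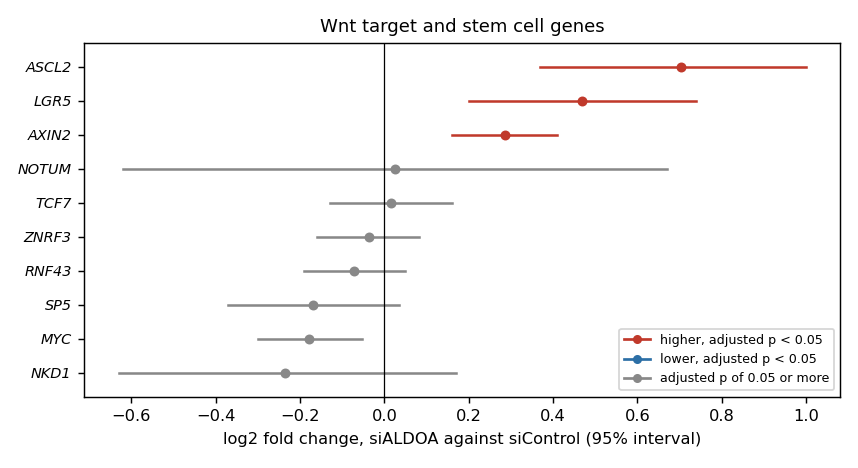
Log2 fold change of siALDOA against siControl for each member, with its 95% confidence interval from edgeR. ASCL2, LGR5 and AXIN2 (red) had an adjusted p under 0.05. No member was called lower in this fit, which has no block for the replicate number. The interval of MYC ran from -0.30 to -0.054, although its adjusted p was 0.0663.

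ASCL2 (ENSG00000183734, hg38 chromosome 11, 2268498 to 2270588, minus strand) encodes a basic helix-loop-helix factor that controls the stem cell programme of the crypt. It was measured at 12.1, 11.6 and 7.53 CPM in siALDOA replicates 1 to 3 and at 6.54, 6.52 and 6.16 CPM in the siControl replicates. All 3 siALDOA libraries were higher than every siControl library, and siALDOA replicate 3 was close to the control values. The means were 10.4 ± 2.52 CPM after knockdown and 6.41 ± 0.214 CPM in controls (SD, n = 3 each), and the log2 fold change was 0.70 (SE 0.16, 95% interval 0.37 to 1.0, edgeR adjusted p = 0.0065). ASCL2 had the largest fold change of the members. It passed the test under each of the 15 processing alternatives, with log2 fold changes from 0.58 to 0.89, the upper end without siALDOA replicate 3.

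LGR5 (ENSG00000139292, hg38 chromosome 12, 71439798 to 71586310, plus strand), the R-spondin receptor that marks crypt base stem cells, was measured at 38.3, 29.0 and 28.4 CPM with siALDOA and at 29.3, 20 and 19.8 CPM with siControl. The groups overlapped, because siControl replicate 1 was as high as siALDOA replicates 2 and 3, but each siALDOA library was higher than the siControl library of the same replicate number. In both groups replicate 1 was the highest. In both it also had the highest share of ribosomal RNA, 13.1% with siALDOA and 17.4% with siControl. For siControl replicates 2 and 3 the shares were 15.3% and 8.15%, at LGR5 levels of 20 and 19.8 CPM. For siALDOA replicates 2 and 3 they were 7.71% and 8.11%, at 29.0 and 28.4 CPM. The call was kept when ribosomal RNA genes were left out of the counts, and the part of their share in the level of LGR5 was not tested. The means were 31.9 ± 5.57 CPM with siALDOA and 23.0 ± 5.41 CPM with siControl (SD, n = 3 each), a log2 fold change of 0.47 (SE 0.13, 95% interval 0.20 to 0.74, edgeR adjusted p = 0.0272). With a block for the replicate number the log2 fold change was 0.48 (edgeR adjusted p = 7.5e-05). The call was lost with DESeq2 (adjusted p = 0.205), without siALDOA replicate 1 (log2 fold change 0.32, edgeR adjusted p = 0.143), without siControl replicate 2 (0.38, adjusted p = 0.158) and without siControl replicate 3 (0.37, adjusted p = 0.149). Without siControl replicate 1 the log2 fold change was 0.68 (edgeR adjusted p = 7.91e-04). A long non-coding RNA gene on the opposite strand, with no row of its own, shares 208 exon bases with LGR5.

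AXIN2 (ENSG00000168646, hg38 chromosome 17, 65528563 to 65561648, minus strand) encodes a scaffold of the destruction complex and is a widely used readout of β-catenin activity. It stood at 121, 112 and 120 CPM with siALDOA and at 91.2, 96.9 and 102 CPM with siControl. Every siALDOA library was above every siControl library. The group means of 118 ± 5.07 and 96.6 ± 5.27 CPM (SD, n = 3 each) gave a log2 fold change of 0.28 (SE 0.062, 95% interval 0.16 to 0.41, edgeR adjusted p = 0.0048). The change of AXIN2 was the smallest of the 3 called members and was called under all 15 alternatives, with adjusted p-values from 3.18e-04 to 0.0303. A read-through gene of GENCODE release 44 that has no row of its own in the count tables shares 1316 exon bases with AXIN2 on the same strand, so reads of both cannot be told apart.

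RNF43 and ZNRF3 encode related membrane ubiquitin ligases that remove Frizzled receptors from the cell surface and that R-spondins inhibit through LGR receptors. RNF43 (chromosome 17, 58353676 to 58417595, minus strand) was measured at 239, 256 and 258 CPM with siALDOA and 276, 252 and 264 CPM with siControl. ZNRF3 (chromosome 22, 28883572 to 29057488, plus strand) was measured at 189, 187 and 192 CPM with siALDOA and 207, 185 and 192 CPM with siControl. Both overlapped between the groups, and siControl replicate 1 was the highest library for each. The log2 fold change was -0.071 for RNF43 (95% interval -0.19 to 0.049, edgeR adjusted p = 0.50). For ZNRF3 it was -0.037 (95% interval -0.16 to 0.083, edgeR adjusted p = 0.754). The upper bounds of both intervals lay below the log2 fold change of AXIN2, and the sign of both fold changes turned positive when the counts were scaled by library totals alone. RNF43 shares 4326 exon bases with a read-through gene on the same strand that has no row of its own, so reads of both cannot be told apart, also in the level per kilobase given above. RNF43 also shares 345 exon bases with TSPOAP1-AS1 on the opposite strand, which had a log2 fold change of 0.0082 (edgeR adjusted p = 0.969).

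NKD1 and NOTUM encode inhibitors of the pathway, NOTUM a secreted enzyme that removes the lipid from Wnt ligands and NKD1 a cytoplasmic partner of Dishevelled. NKD1 was measured at 4.49, 3.93 and 3.94 CPM with siALDOA and 5.52, 3.57 and 5.43 CPM with siControl. NOTUM was measured at 1.58, 1.36 and 1.65 CPM with siALDOA and 1.70, 1.05 and 1.76 CPM with siControl. Both overlapped, and for each the lowest library was siControl replicate 2 and the siALDOA libraries lay closer together than the siControl libraries. The log2 fold change of NKD1 was -0.24 (SE 0.19, 95% interval -0.63 to 0.17, edgeR adjusted p = 0.506), and with 1 library left out it ran from -0.13 to -0.41, the lower end without siControl replicate 2. The log2 fold change of NOTUM was 0.025 (SE 0.31, 95% interval -0.62 to 0.67, edgeR adjusted p = 0.971). NKD1 had 815 counts and NOTUM 275 over all 6 libraries, and the interval of NOTUM included the log2 fold changes of AXIN2 and LGR5. Genes on the opposite strand without rows of their own share 67 exon bases with NKD1 and 148 with NOTUM.

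SP5 and TCF7 encode transcription factors, SP5 a zinc finger repressor induced by β-catenin and TCF7 one of the TCF partners of β-catenin. SP5, whose promoter is printed above, was measured at 14.8, 15.0 and 16.4 CPM with siALDOA and 18, 16.4 and 17.6 CPM with siControl. The groups touched at siALDOA replicate 3 and siControl replicate 2, and the log2 fold change was -0.17 (SE 0.098, 95% interval -0.37 to 0.035, edgeR adjusted p = 0.314). TCF7 was measured at 61.9, 70.0 and 65.6 CPM with siALDOA and 69.8, 60.4 and 65.1 CPM with siControl. Both groups of TCF7 values covered nearly the same range, with a log2 fold change of 0.016 (SE 0.070, 95% interval -0.13 to 0.16, edgeR adjusted p = 0.919). TCF7 shares 210 exon bases with SKP1 on the opposite strand, and SKP1 had a log2 fold change of -0.060 (edgeR adjusted p = 0.664).

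MYC (ENSG00000136997) encodes the growth-promoting transcription factor that β-catenin drives in colorectal cancer. It was measured at 126, 142 and 138 CPM with siALDOA and at 151, 156 and 153 CPM with siControl. All siALDOA libraries were lower than all siControl libraries, siALDOA replicate 1 the most. The means were 135 ± 8.64 and 153 ± 2.70 CPM (SD, n = 3 each), a log2 fold change of -0.18 (SE 0.060, edgeR unadjusted p = 0.00739, adjusted p = 0.0663). With a block for the replicate number the log2 fold change was the same to 2 decimals, -0.18, and the edgeR adjusted p was 0.0206. MYC also passed with DESeq2 (adjusted p = 0.0393) and without the filter on low counts (edgeR adjusted p = 0.0479). Scaled by library totals alone, however, its log2 fold change was -0.10 (edgeR adjusted p = 0.513). MYC shares 194 exon bases with CASC11 on the opposite strand, which had 36 counts in all 6 libraries and was not tested. MYC differed in sign from AXIN2, LGR5 and ASCL2 under all 15 alternatives.

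**Figure D3:**
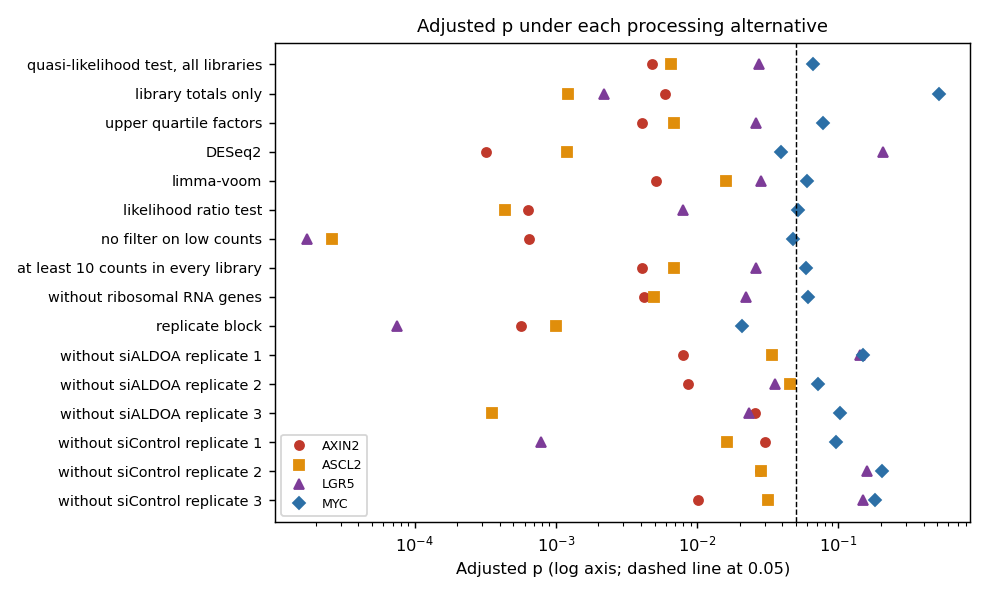
Adjusted p of AXIN2, ASCL2, LGR5 and MYC under the quasi-likelihood test and each of the 15 alternatives, on a log axis with a dashed line at 0.05. AXIN2 and ASCL2 lay left of the line throughout, LGR5 crossed it under 4 alternatives and MYC lay left of it under 3.

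Among the controls, siControl replicate 2 held the lowest siControl level of 6 members, RNF43, ZNRF3, NKD1, NOTUM, SP5 and TCF7, and siControl replicate 1 held the highest level of 7 of the 10 members, LGR5 and ASCL2 among them. MYC had the opposite order, with siControl replicate 1 lowest and replicate 2 highest, and the siALDOA replicates showed no such shared order.

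The rest of the Wnt pathway was described with 120 other genes, of which 86 were tested and 16 were called, 6 higher and 10 lower, where 9.66% of all tested genes were called. With library totals alone the balance turned, to 7 higher and 4 lower. That scaling also moved the median of all tested genes from 0.0016 to 0.075. The share of all calls that were higher went from 45.2% to 76.3%. Among these 86, 58 had a negative and 28 a positive fold change with a median of -0.074, but under that scaling 43 were negative and 43 positive.

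Upstream of the target genes, the calls were counted by role, where 9.66% of all tested genes were called. Of 21 genes for Wnt ligands and their secretion, 9 were tested and 0 were called by edgeR. WNT11, the ligand gene with the smallest p, was 24.2 CPM with siALDOA and 19.9 CPM with siControl (log2 fold change 0.28, edgeR adjusted p = 0.121), but it passed under 4 alternatives. These were a block for the replicate number (0.30, edgeR adjusted p = 0.0288), library totals alone (0.36, adjusted p = 0.0379), no filter on low counts (0.28, adjusted p = 0.0474) and leaving out siControl replicate 1 (0.46, adjusted p = 0.00612). Of 14 receptor and co-receptor genes tested, 1 was called, and this was ROR1, a receptor tyrosine kinase for WNT5A, which fell from 104 ± 2.92 to 72.1 ± 0.741 CPM (SD, n = 3 each, log2 fold change -0.53, edgeR adjusted p = 3.21e-06). LGR4, the relative of LGR5 that also binds R-spondins, was 134 CPM with siALDOA and 142 CPM with siControl (edgeR adjusted p = 0.365). Of 7 inhibitor genes tested besides the members, KREMEN1, a receptor for DKK proteins, was the 1 called, at 28.9 ± 1.14 against 38.4 ± 2.45 CPM (SD, n = 3 each, log2 fold change -0.41, edgeR adjusted p = 0.00152).

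The destruction complex and its regulators were represented by 22 tested genes, of which 0 were called higher and 2 lower. Together these calls are near the share of all tested genes called, 9.66%. AXIN1, the constitutively expressed relative of AXIN2, fell from 77.8 ± 3.14 to 65.2 ± 2.93 CPM (SD, n = 3 each, log2 fold change -0.26, edgeR adjusted p = 0.0132), so AXIN1 and AXIN2 moved in opposite directions. DVL1, a Dishevelled protein that relays the receptor signal, was the other called gene (log2 fold change -0.23, edgeR adjusted p = 0.016). Each lost its call with library totals alone and without siControl replicate 3 (edgeR adjusted p = 0.089 for AXIN1 and 0.0926 for DVL1), AXIN1 also without siALDOA replicate 2 (0.081) and DVL1 without siControl replicate 2 (0.05). With the replicate block PPP2R5A, a subunit of protein phosphatase PP2A, was called lower as well (-0.19, edgeR adjusted p = 0.0466). CTNNB1, which encodes β-catenin, was 193 ± 4.3 CPM with siALDOA and 183 ± 6.07 CPM with siControl (SD, n = 3 each, edgeR adjusted p = 0.483), and APC had an edgeR adjusted p of 0.26.

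Of 14 tested genes for TCF factors and their partners besides TCF7, 2 were called higher and 1 lower. Of all tested genes 4.36% were called higher and 5.29% lower. TLE5, a short Groucho family protein, rose from 150 to 187 CPM (log2 fold change 0.31, edgeR adjusted p = 0.00264). PYGO2, a β-catenin co-activator, rose from 80.6 to 95.3 CPM (0.24, edgeR adjusted p = 0.00996), but not past the threshold without siControl replicate 2 (0.0566) or replicate 3 (0.0693). CREBBP, an acetyltransferase and co-activator, fell (-0.24, edgeR adjusted p = 0.044), and it lost its call with library totals alone (adjusted p = 0.292) and when any library other than siALDOA replicate 3 was left out (adjusted p of up to 0.149). With the replicate block the co-repressor gene TLE1 was called lower as well (-0.20, edgeR adjusted p = 0.0198). LEF1 was not tested, since it had 16, 11 and 6 counts after knockdown and 4, 7 and 1 in the controls.

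Other Wnt target genes moved in both directions. Of 24 tested, 4 were called higher and 5 lower, where 4.36% and 5.29% of all tested genes were. The median of the list was -0.12 on the log2 scale. With library totals alone 5 were called higher and 2 lower, and the median was -0.043. With the replicate block WNT11, which is on this list too, made 5 higher and 5 lower. EPHB3 and EPHB2, the ephrin receptors that position cells along the crypt, both rose. EPHB3 was measured at 30.6, 33.7 and 34.5 CPM with siALDOA and 22.6, 22.5 and 21 CPM with siControl (log2 fold change 0.58, SE 0.083, edgeR adjusted p = 7.91e-05). EPHB2 was measured at 3.99, 2.5 and 2.78 CPM against 1.35, 1.28 and 0.85 CPM (log2 fold change 1.41, SE 0.29, edgeR adjusted p = 0.00278). Neither gene overlapped between the groups. MYB, a progenitor transcription factor, and ETS2, a transcription factor of the ETS family, rose as well, with log2 fold changes of 0.41 (edgeR adjusted p = 0.0043) and 0.30 (edgeR adjusted p = 7.91e-04).

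Among the targets that fell, the tight junction gene CLDN1 went from 37.2 ± 2.92 to 24.0 ± 0.59 CPM (SD, n = 3 each, log2 fold change -0.63, edgeR adjusted p = 2.27e-05). JUN, a subunit of the AP-1 factor, went from 179 ± 5.52 to 135 ± 3.75 CPM (SD, n = 3 each, log2 fold change -0.41, edgeR adjusted p = 5.02e-05). The 6 genes EPHB3, EPHB2, MYB, ETS2, CLDN1 and JUN kept their calls under all 15 alternatives. The other 3 called targets, CCND1, PLAUR and FGF9, were lower with log2 fold changes of -0.24, -0.35 and -0.34. They are named here after their values were seen, and each lost its call with library totals alone and without siControl replicate 2 (edgeR adjusted p = 0.0727, 0.0971 and 0.105). CCND1 also lost it without siControl replicate 3, PLAUR without siALDOA replicate 1, and FGF9 when any library except siALDOA replicate 1 was left out, with edgeR adjusted p-values of up to 0.125.

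**Figure D4:**
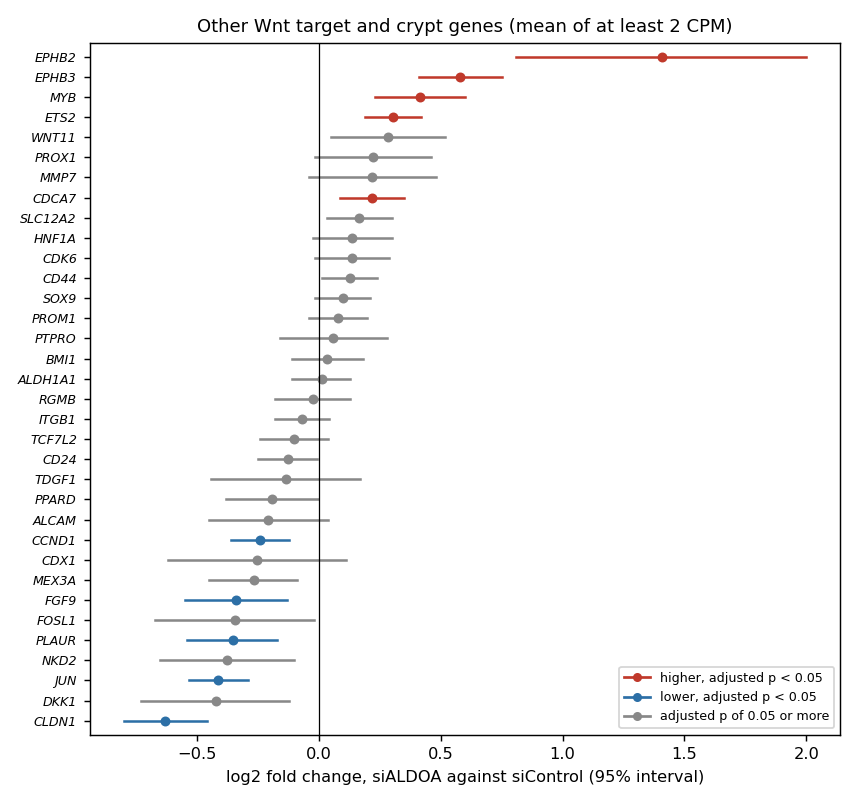
Log2 fold change with 95% confidence interval for the other Wnt target genes and crypt stem cell genes that averaged 2 CPM or more. Red genes were called higher and blue genes lower at an edgeR adjusted p under 0.05. EPHB2, EPHB3, MYB, ETS2 and CDCA7 were called higher, and CLDN1, JUN, PLAUR, FGF9 and CCND1 lower.

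Beside LGR5 and ASCL2, 17 other genes of crypt stem cells were tested, with 3 called higher, 0 lower and a median log2 fold change of 0.06. Of all tested genes 4.36% were called higher and 5.29% lower. Scaled by library totals alone the median was 0.14, with 3 called higher and 0 lower. EPHB2 and EPHB3 belong to this list too, and the third was CDCA7 at 130 ± 9.82 against 111 ± 3.23 CPM (SD, n = 3 each, log2 fold change 0.22, edgeR adjusted p = 0.0325). The call of CDCA7 was kept only when siALDOA replicate 3 was the library left out, and the highest edgeR adjusted p otherwise was 0.127. With a block for the replicate number 5 genes of the list were called, 4 higher and 1 lower, SLC12A2 (0.17, edgeR adjusted p = 0.0348) and MEX3A (-0.26, edgeR adjusted p = 0.0147) being added. DESeq2 called 3 genes of the list higher and 2 lower. OLFM4, a marker of LGR5-positive cells, was listed at 0 counts in every library, and since FBL, a nucleolar gene that growing cells use, was also listed at 0 in all 6, neither was read as absent. Of 9 tested markers of differentiated intestinal cells, 0 were called by edgeR, where 9.66% of all tested genes were called. CA2 and MUC2, those with the smallest p, had log2 fold changes of -0.31 (edgeR adjusted p = 0.0936) and -0.27 (edgeR adjusted p = 0.129), and CA2 passed with the replicate block (adjusted p = 0.0476). MUC2 passed with no filter on low counts (-0.28, edgeR adjusted p = 0.0458) and without siControl replicate 2 (-0.38, edgeR adjusted p = 0.0493).

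Genes that MYC is known to activate in ribosome production and growth were mostly on the same side as MYC, which itself was not called. Of 27 tested, 24 had a negative fold change and the median was -0.12. Over all 15307 tested genes, 7612 were negative and 7695 positive, with a median of 0.0016. Scaled by library totals alone, 17 of the 27 were negative and the median was -0.042. The list was chosen with earlier results of these data known, and the activity of MYC was not tested. By the test, 6 were called lower and 1 higher, where 5.29% of all tested genes were called lower and 4.36% higher. WDR12, RRS1 and PES1, which act in the assembly of the large ribosomal subunit, had log2 fold changes of -0.28, -0.28 and -0.24 (edgeR adjusted p = 0.0197, 0.0212 and 0.0184). DKC1, the pseudouridine synthase of small nucleolar RNPs, ODC1, the first enzyme of polyamine synthesis, and NOP2, a ribosomal RNA methyltransferase, had log2 fold changes of -0.23, -0.23 and -0.21 (edgeR adjusted p = 0.0146, 0.0178 and 0.0451). NOLC1, a nucleolar protein named after its value was seen, was the 1 called higher (0.21, edgeR adjusted p = 0.0493). NOP2 lost its call whichever library was left out, and NOLC1 kept its call only without siALDOA replicate 1. Over the fits with 1 library left out, the highest edgeR adjusted p of these 7 genes ran from 0.0969 for ODC1 to 0.198 for NOLC1. All 6 lower calls were lost with library totals alone, and the list had 0 calls without siALDOA replicate 3 or without siControl replicate 2, 2 without siControl replicate 3 and 4 without siALDOA replicate 2. With the replicate block 10 were called, 1 higher and 9 lower.

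**Figure D5:**
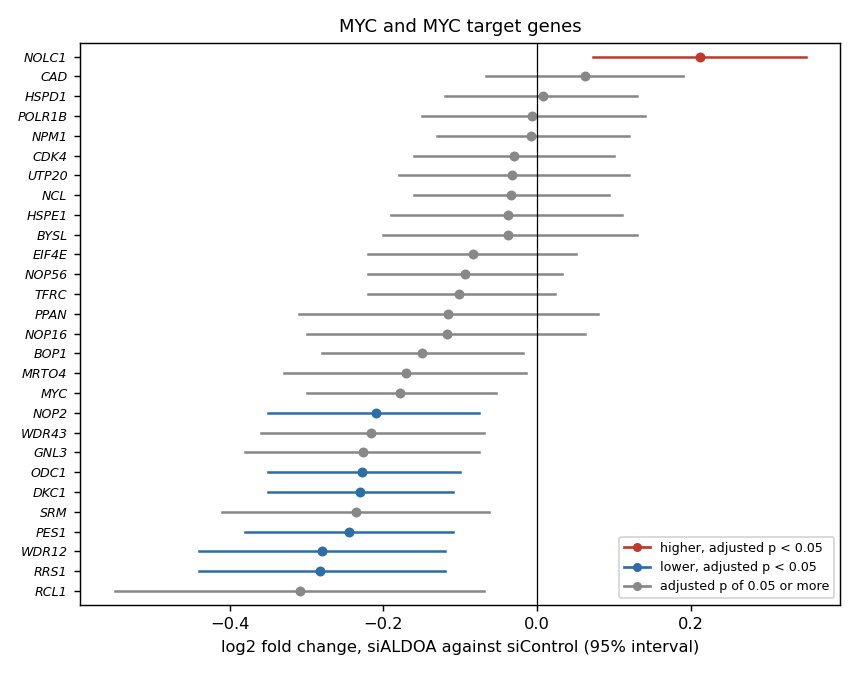
Log2 fold change with 95% confidence interval for MYC and its 27 tested target genes, ordered by size. Blue genes were called lower and the red gene, NOLC1, higher at an edgeR adjusted p under 0.05. MYC itself had a log2 fold change of -0.18 and an adjusted p of 0.0663.

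Of 13 tested genes for MYC family proteins and their partners other than MYC, 0 were called higher and 1 lower. This is near the share of all tested genes called, 9.66%. MXD1, which competes with MYC for their shared partner MAX, was 29.5 ± 1.39 CPM with siALDOA and 35.6 ± 3.1 CPM with siControl (SD, n = 3 each, log2 fold change -0.27, edgeR adjusted p = 0.0402). The call of MXD1 was lost with library totals alone (edgeR adjusted p = 0.24) and without siALDOA replicate 1 or 2 or siControl replicate 1 or 3 (adjusted p of up to 0.21).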

How the data were processed

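The libraries, 3 siALDOA and 3 siControl from HT29 cells at 48 h, were grouped by their sample titles. The authors used TopHat2 for alignment to hg38 and gfold for counting by gene symbol, and compared groups with edgeR and limma. Each deposited file holds whole-number counts of 1 library, not normalized. The gene annotation, strand setting and handling of reads with several matches were not given in the sources used here.

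Counts were tested in R 4.3.3 with edgeR 4.0.16 (filterByExpr, TMM factors, quasi-likelihood F-test, all 6 libraries, no covariate), with Benjamini-Hochberg adjustment over 15307 genes and a threshold of 0.05. Each standard error was obtained from the log2 fold change and the F statistic. Levels per kilobase used MANE Select lengths from GENCODE. At 27277538 to 33237914 counts per library, a gene at 1 CPM rests on about 30 counts. The method was also run on simulated counts without a shared replicate or ribosomal RNA effect, and no result given here rests on that run. The members, gene lists and alternatives were chosen with earlier results of these data known. Named genes are all members, and in each other list those called, at most the 6 with the smallest p, the most abundant gene, or the 2 with the smallest p where none was called. Some genes under this rule are not printed. LGR4, CTNNB1, APC, LEF1, OLFM4, FBL and the genes added by the replicate block lie outside it and were chosen after their values were seen. Cell type markers came from a separate list.

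The 15 alternatives were library totals only, upper quartile factors, DESeq2 1.42.0, limma-voom (limma 3.58.1), a likelihood ratio test, testing without a filter, a minimum of 10 counts in all libraries, leaving out ribosomal RNA genes, a block for the replicate number and leaving out 1 library at a time. The labels give both groups replicate numbers 1 to 3. Over 10079 genes of at least 10 CPM, deviations from the group means correlated between libraries of the same number at 0.212, 0.138 and 0.208. No label states a shared batch, so pairing was not settled, and the replicate block is given as 1 alternative beside the test without it. Unmatched libraries correlated at -0.28 to 0.146, the highest being siALDOA replicate 2 with siControl replicate 3, above the matched value of replicate 2.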

Additional observations from a re-analysis of the deposited data

How the results depend on the processing

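Over the 10 members and 15 alternatives, 136 of 150 fold changes kept their direction and their side of the threshold, 4 lost a call (all LGR5), 3 gained one (all MYC) and 7 changed sign, none of them in a called member. The members called lower numbered 1 with DESeq2, 1 with no filter and 1 with the replicate block, in place of 0, and this was MYC each time. Scaled by library totals only, RNF43 (0.0036) and ZNRF3 (0.037) turned positive on the log2 scale. With 1 library left out, log2 fold changes ran from -0.074 to 0.0096 for ZNRF3, from -0.18 to 0.16 for NOTUM and from -0.036 to 0.069 for TCF7.

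With 1 library left out, all genes called numbered 834 to 1434, those higher 359 to 644, those lower 471 to 790 and other Wnt pathway genes called 10 to 16, the lowest counts without siControl replicate 2 or 3. With library totals only 279 genes were lower, and 76.3% of 1175 calls were higher, against 45.2% of 1478, while the median of all genes moved to 0.075. The replicate block called 2162 genes and changed no call of a member other than MYC. The 27 other called genes gave 405 values, of which 84 lost the call and 0 changed sign, and 9 genes kept it throughout. Leaving out a library also leaves fewer samples. For other alternatives the cause was not tested. NOTUM and NKD1 had the fewest counts and the widest intervals of the members, and whether depth or the spread between libraries limits them was not tested. The p-values cover these libraries of 1 line and 1 siRNA target only.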
